A study of Mus musculus with 3 samples.

Results

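The collagen gene family was taken as every gene in the deposited gene list whose symbol has the form Col, a number, the letter a and a number, which gave 44 of 27998 genes. The members encode the alpha chains of collagens, and by the known structure of their proteins they were grouped into 11 fibrillar, 9 network, 9 FACIT (fibril-associated collagens with interrupted triple helices), 4 transmembrane, 6 beaded filament, 1 anchoring fibril, 2 multiplexin and 2 other chains. They were measured by droplet single-cell RNA sequencing of dorsal skin of C57BL/6 mice from newborn, 3-week-old and 2-month-old animals (labelled neonatal, 3 weeks and 2 months), a single library per age. Cells had been released with collagenase D and DNase, and the kit reads the 3' ends of transcripts, so that a UMI (unique molecular identifier) counts 1 captured molecule and values are not divided by gene length. How many mice went into a library, and their sex, are not given in the labels, and age and library cannot be told apart.

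A trio of alpha chains, alike or different, wind into a triple helix, and the chain types decide which assembly forms. Fibrillar collagens make the tensile fibres of the dermis, with type I as the bulk, type III prominent in young and healing skin, and type V as a regulator of fibre diameter. Network collagens build basement membranes around vessels, nerves, muscle and epithelia, FACITs and beaded filaments decorate the fibres, and transmembrane collagens sit in cell membranes, among them type XVII of the hemidesmosome.

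Promoter windows are printed for 4 members whose levels moved together or apart in the results below. They come from RefSeq on build GRCm38.p6, run from 250 bases before to 50 bases after the annotated start, and were found for 35 of the 44 members (38 windows). Col4a1 and Col4a2, the paired chains of type IV collagen, lie head to head on chromosome 8, on opposite strands, and their gene records overlap by 85 bases. The printed Col4a1 window is placed on a start inside its gene record and not at the record's end, so the 85 bases do not refer to the starts of the printed windows. Col1a2, a chain of type I collagen, and Col3a1, the chain of type III collagen, lie on chromosomes 6 and 1. Each is written 5′ to 3′ on the strand of its gene, and capitals mark every CCAAT box (CCAAT or its complement ATTGG), GC box (GGGCGG or its complement CCGCCC) and TATA box (TATAAA or its complement TTTATA).
Col4a1, chr8:11312777-11313076, minus strand: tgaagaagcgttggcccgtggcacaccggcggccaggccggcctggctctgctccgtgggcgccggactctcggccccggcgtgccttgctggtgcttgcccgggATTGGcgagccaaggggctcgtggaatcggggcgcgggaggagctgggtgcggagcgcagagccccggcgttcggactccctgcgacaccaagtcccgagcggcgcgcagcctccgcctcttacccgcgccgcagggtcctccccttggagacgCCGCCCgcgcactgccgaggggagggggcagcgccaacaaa
Col4a2, chr8:11312555-11312854, plus strand: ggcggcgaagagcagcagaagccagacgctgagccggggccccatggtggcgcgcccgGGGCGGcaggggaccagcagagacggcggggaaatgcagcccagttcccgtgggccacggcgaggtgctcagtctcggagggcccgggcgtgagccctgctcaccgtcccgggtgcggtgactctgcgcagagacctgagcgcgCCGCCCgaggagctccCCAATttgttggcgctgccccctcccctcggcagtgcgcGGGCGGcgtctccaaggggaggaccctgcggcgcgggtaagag
Col1a2, chr6:4505368-4505667, plus strand: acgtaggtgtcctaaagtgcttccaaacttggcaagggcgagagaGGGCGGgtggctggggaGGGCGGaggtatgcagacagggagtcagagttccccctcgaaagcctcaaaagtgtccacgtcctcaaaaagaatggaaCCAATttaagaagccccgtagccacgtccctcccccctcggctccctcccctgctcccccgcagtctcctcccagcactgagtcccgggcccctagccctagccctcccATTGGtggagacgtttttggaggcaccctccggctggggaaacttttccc
Col3a1, chr1:45311288-45311587, plus strand: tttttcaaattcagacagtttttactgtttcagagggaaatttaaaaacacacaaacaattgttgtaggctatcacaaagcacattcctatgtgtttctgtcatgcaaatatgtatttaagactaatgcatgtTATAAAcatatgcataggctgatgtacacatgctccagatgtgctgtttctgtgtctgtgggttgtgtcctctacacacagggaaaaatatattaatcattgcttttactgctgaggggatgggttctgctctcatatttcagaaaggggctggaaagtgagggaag

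The Col4a1 and Col4a2 windows share 78 bases (chr8:11312777-11312854). Their GC content was 74.0% and 73.7%, against 61.0% for Col1a2 and 37.7% for Col3a1. The Col3a1 window held a TATA box and no CCAAT or GC box, and the Col1a2 window held 2 CCAAT and 2 GC boxes and no TATA box. Over the family, a GC box was present in 60.5% of windows (23 of 38) against 35.7% of all 32851 windows in the table. CCAAT boxes were present in 34.2% against 37.4%, and TATA boxes in 13.2% against 13.6%. A match is a run of letters and not a shown binding site.

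After barcodes with under 300 genes, under 500 UMIs or over 10% mitochondrial UMIs were removed, 7911 neonatal, 8900 3-week and 9332 2-month barcodes remained, with 81282170, 109336985 and 96290401 UMIs and medians of 8685, 11142.5 and 8529.5 UMIs per barcode. Cells were assigned to classes by gates on marker genes that include no collagen, so a class is a range of a score and is written with the ending -like. Of 26143 cells 90.3% were gated, 10.5% lay within 0.05 score units of a cut, and 98.2% of cells compared had the same class in a Leiden clustering. The fibroblast-like gate held 5739, 5553 and 4755 cells. All 8 fibroblast markers were detected there. The median scores within it were 0.559 for fibroblast, 0.0753 for pericyte, 0.0367 for endothelial and 0.0142 for keratinocyte markers. The gate was drawn on these scores, so they describe it and do not test it. Between 49 and 57 barcodes of each library also occurred in another library. No doublets were removed, and results without the 6% highest Scrublet doublet scores are given where that changed a call.

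Collagens made up 5.33% of all UMIs of fibroblast-like cells in the neonatal library, 15.8% at 3 weeks and 15.1% at 2 months, and 43 of the 44 members were detected in these cells. Nearly all of this came from 3 genes: Col1a1, Col1a2 and Col3a1 gave 84.7%, 94.0% and 96.4% of the collagen UMIs. The share of fibrillar chains among collagen UMIs was 88.9%, 96.0% and 97.7%, while that of the beaded filament chains was 7.59%, 2.50% and 1.26%. All other structural groups stayed under 1.3% in each library. The summed level of the 8 fibroblast markers also differed, at 8622, 20870 and 21010 CPM (counts per 1e6 UMIs), and its part in these shares was not tested. The makeup of the gate differed too. By the subtype gates described below, interstitial progenitor-like cells were 4.44%, 29.0% and 33.0% of it and dermal sheath-like cells 9.27%, 4.02% and 1.85%. The part of this makeup in the shares was not tested. Of the 44 members, 26 reached 10 CPM in fibroblast-like cells of at least 1 library. Of the other 18, 12 reached it in another gated class or a fibroblast subtype, and 6 reached it nowhere (Col2a1, Col11a2, Col4a3, Col10a1, Col22a1 and Col6a4). Col10a1, a chain of hypertrophic cartilage, had 0 UMIs in fibroblast-like cells.

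**Figure D1:**
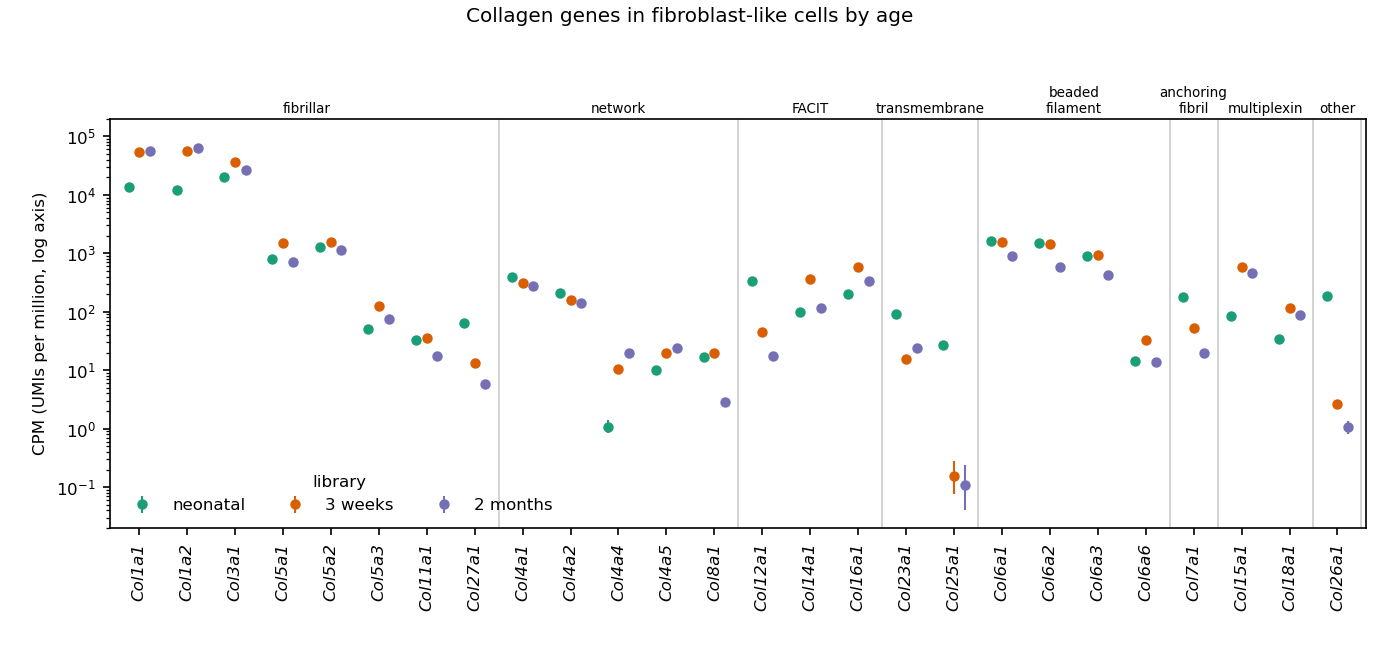
CPM of each collagen gene in fibroblast-like cells (log axis) in the neonatal, 3-week and 2-month libraries, with exact 95% Poisson intervals for counting error, grouped by collagen structure. Col1a1, Col1a2 and Col3a1 lie above all other members in every library, and Col25a1 and Col26a1 go from 26.9 and 185 CPM to 0.155 and 2.60 CPM between the neonatal and 3-week libraries.

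Since a single library stands for each age, the ages are compared without a test, and intervals cover counting error only. A member was called higher or lower where its CPM differed at least 2-fold, among members at 10 CPM or more in either library. Between the neonatal and the 3-week library 9 of 26 members were higher, against 8.17% of all genes measured, and 6 were lower, against 10.7%. Their median log2 ratio was 0.22, against −0.19 for all genes. Between 3 weeks and 2 months 0 of 24 were higher (3.29% of all genes) and 10 were lower (3.18%), with a median of −0.78 against −0.08. Scaling moved the 3-week to neonatal median of all genes by −0.23 when mitochondrial, ribosomal-protein and haemoglobin genes were left out of the total, by 0.27 when collagens and Sparc were left out, and by 0.20 with TMM factors. Under the first of these the median of the collagens was −0.03, and under the last 2 the number higher was 12. The 8.17% of all genes belongs to the main scaling. The share under the other scalings is not given here, so the 12 has no matching share.

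Among the fibrillar chains, type I showed the highest levels after the neonatal age. Col1a1 was at 13375 CPM in the neonatal, 54467 at 3 weeks and 55272 at 2 months, a log2 ratio of 2.03 from neonatal to 3 weeks. Col1a2 was at 11917, 56649 and 63656 CPM, a log2 ratio of 2.25. From 3 weeks to 2 months both differed by under 0.2 log2, and both ratios changed sign when CPM was averaged over cells in place of summed. Col3a1 went from 19837 to 37039 and then 27137 CPM, with a log2 ratio of 0.90 that passed 2-fold with TMM scaling or without collagens in the total.

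The balance of type III to type I chains differed between the ages. Fibroblast-like cells had 1.48 Col3a1 UMIs per Col1a1 UMI in the neonatal library, 0.680 at 3 weeks and 0.491 at 2 months, and a ratio within one library does not depend on scaling. In the papillary-, interstitial progenitor-, dermal sheath- and follicle-associated Coch-like cells and in those of no gate it was lower at each later age. The nerve-associated-like cells kept 1.54 and 1.58 at the first pair of ages and had 0.721 at 2 months. The deep reticular or fascia-like gate had 20 or more cells only at 3 weeks, where its 30 cells had 1.65. The lowest ratios were in the follicle-associated Coch-like cells, at 1.06, 0.468 and 0.409. Macrophage or dendritic-, lymphocyte- and mast-like cells, pooled, had ratios of 2.03, 0.992 and 0.807, above the fibroblast value in every library, and 759 of their 934 neonatal Col1a1 UMIs were in mast-like cells. The paired chains of type I stayed close, with 1.12, 0.961 and 0.868 Col1a1 UMIs per Col1a2 UMI.

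**Figure D2:**
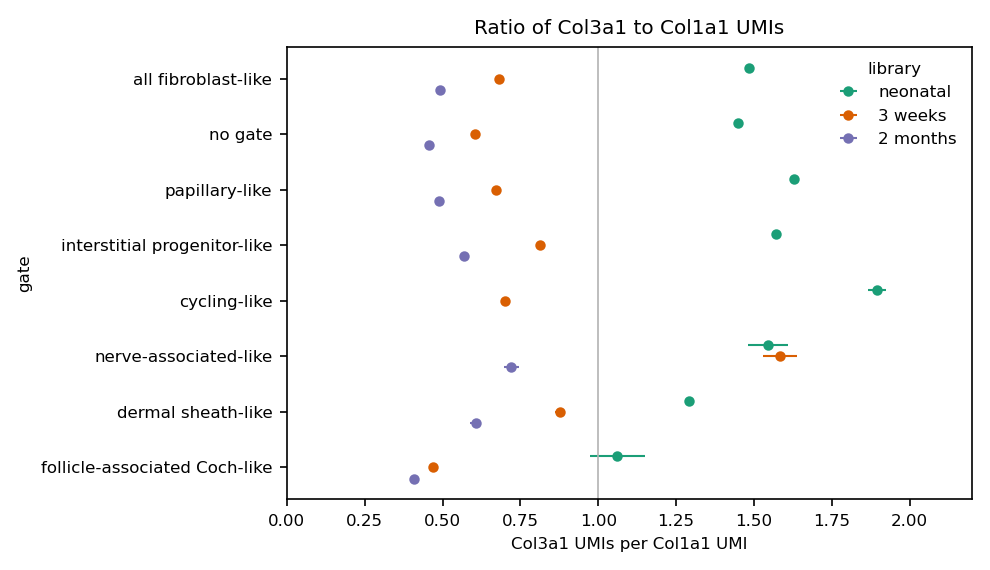
Col3a1 UMIs per Col1a1 UMI in all fibroblast-like cells, in those of no gate and in 6 subtype gates (20 or more cells in a library and at least 2 such libraries), with exact 95% intervals for counting error, by library. All neonatal points lie right of 1, and the plotted points of 3 weeks and 2 months lie left of it, except the 3-week nerve-associated-like cells at 1.58.

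The minor fibrillar chains did not follow type I. Col5a1, part of the type V collagen that limits fibre width, was at 791, 1492 and 712 CPM, and its partner Col5a2 at 1281, 1536 and 1120 CPM. The first step of Col5a1, a log2 ratio of 0.92, passed 2-fold with TMM scaling or without collagens and Sparc in the total. The third chain Col5a3 was at 50.8, 128 and 74.99 CPM, a log2 ratio of 1.33 from neonatal to 3 weeks. Col27a1, a fibrillar chain best known from cartilage, was lower at each age, at 65.4, 13.1 and 5.92 CPM, with log2 ratios of −2.31 and −1.15. Col11a1, a close relative of the type V chains, was at 32.8, 35.5 and 17.4 CPM. The first step of Col11a1, 0.12 on the log2 scale, changed sign under another scaling and with Leiden clusters, and was 1.03 when CPM was averaged over cells. The second steps of Col11a1 and Col27a1 fell short of 2-fold when CPM was averaged over cells. That of Col11a1 also did with at most 5% mitochondrial UMIs or TMM scaling, and that of Col27a1 with Leiden clusters.

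FACITs and their neighbours on the fibre surface split by age. Col12a1, which links fibres and bears load, was at 341, 45.6 and 17.2 CPM, with log2 ratios of −2.90 and −1.41, the second being −0.81 when CPM was averaged over cells. Col14a1, its close relative, went the other way and back, at 99.5, 357 and 114 CPM, with log2 ratios of 1.84 and −1.65. Col16a1, a FACIT of the upper dermis, was at 199, 584 and 339 CPM, a log2 ratio of 1.55 at the first step. The 3 chains of type VI collagen, which form beaded filaments around cells, were level at the first step and lower at the second. Col6a1 was at 1621, 1557 and 894 CPM, Col6a2 at 1515, 1416 and 582 CPM, and Col6a3 at 895, 934 and 421 CPM. The second-step log2 ratio of Col6a2 was −1.28 and that of Col6a3 −1.15 (−0.96 when CPM was averaged over cells), while the first-step signs of all 3 chains changed with the scaling. Col6a6, an added type VI chain, was at 14.6, 32.8 and 14.1 CPM, and its log2 ratio at the first step of 1.17 was 0.95 without mitochondrial, ribosomal-protein and haemoglobin genes.

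Chains of the basement membrane zone differed in both directions. Col4a1 and Col4a2, present in all basement membranes, were at 401, 305 and 271 CPM and at 208, 162 and 143 CPM, all steps being under 2-fold, and their ratio was 1.92, 1.88 and 1.90. Col4a4 was at 1.08, 10.6 and 19.8 CPM, a log2 ratio of 3.30 at the first step. Its partner and head-to-head neighbour Col4a3 had 1 UMI in the neonatal library and 209 and 230 UMIs later. Col4a5, the companion of both in one of the type IV networks, was at 9.93, 19.3 and 24.1 CPM. Col7a1, the anchoring fibril chain that ties the epidermal basement membrane to the dermis, was at 176, 52.9 and 20.02 CPM, log2 ratios of −1.73 and −1.40. The multiplexins, proteoglycan collagens of basement membranes, were higher after the neonatal age: Col15a1 was at 84.0, 583 and 467 CPM (log2 ratio 2.80) and Col18a1 at 34.1, 116 and 88.7 CPM (1.77). Col8a1, of the hexagonal networks of vessels, was at 17.0, 19.3 and 2.82 CPM.

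Another 3 chains were highest in the neonatal library. Col26a1, a short secreted collagen, was at 185, 2.60 and 1.06 CPM (log2 ratio −6.15 at the first step, interval −6.37 to −5.94). Col25a1, a transmembrane collagen, was at 26.9, 0.155 and 0.109 CPM (−7.43, −8.44 to −6.59). Col23a1, also transmembrane, was at 93.3, 15.4 and 24.4 CPM (−2.60, −2.69 to −2.50). Within the papillary-like gate, cells with markers of the upper dermis, Col26a1 was at 279 CPM (2472 UMIs) in the neonatal and at 0.269 and 0.283 CPM (1 UMI each) in the later libraries.

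The genes that make and handle collagen were taken from a list of enzymes, chaperones and receptors. Of 36 measured in fibroblast-like cells, 13 were at least 2-fold higher at 3 weeks than in the neonatal library (8.17% of all genes) and 0 lower. Their median log2 ratio was 0.54, against −0.19 for all genes. By role these were 1 of 11 chain-modifying enzymes, 5 of 10 for folding and export, 4 of 5 for propeptide processing, 1 of 5 for crosslinking and 2 of 5 receptors. P4ha2, a prolyl hydroxylase, was at 107, 373 and 185 CPM. Serpinh1, the collagen chaperone, was at 1499, 4321 and 2085 CPM, and Creb3l1, a transcription factor of secretory cells, at 169, 486 and 525 CPM. Pcolce2, an enhancer of the cleavage of procollagen ends, was at 7.77, 246 and 581 CPM. Its relative Pcolce was at 620, 2021 and 1126 CPM. Itga11, a subunit of a collagen-binding integrin, was at 3.79, 17.3 and 26.0 CPM. From 3 weeks to 2 months 1 of 35, Pcolce2, was higher (3.29% of all genes) and 6 were lower (3.18%). Among those lower were Plod2, a lysyl hydroxylase, at 16.0 and then 6.61 CPM, and Fkbp10, a folding factor, at 327 and then 144 CPM.

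Collagen content differed widely between cells of one age. The median share of collagen UMIs per fibroblast-like cell was 4.56% in the neonatal, 13.8% in the 3-week and 6.35% in the 2-month library, so that the 2-month median lay far below the 15.1% of the summed UMIs. At 2 months 2196 cells (46.2%) had under 5%, 696 (14.6%) had 5 to 15% and 1863 (39.2%) had 15% or more. In the neonatal library 13 of 5739 cells had 15% or more, and at 3 weeks 2582 of 5553. Depth went with the share: the median UMI counts in the 3 bins at 2 months were 7101, 9363.5 and 16148, and the part of depth was not tested. Low-collagen cells were unevenly spread over the gates. In papillary-like cells at 2 months even the lower quartile of the share was 7.64%. Of 1571 interstitial progenitor-like cells at 2 months 918 had under 5% and 438 had 15% or more, and of 444 follicle-associated Coch-like cells 427 had under 5%. Median shares by age were 5.15%, 19.1% and 17.2% in papillary-like cells and 4.90%, 17.4% and 17.0% in those of no gate. Interstitial progenitor-like cells had 9.35%, 13.6% and 3.97%, and follicle-associated Coch-like cells 2.36%, 4.57% and 1.58%. Dermal sheath-like cells had 3.03%, 3.08% and 2.00%, and nerve-associated-like cells 4.57%, 6.05% and 2.71%.

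**Figure D3:**
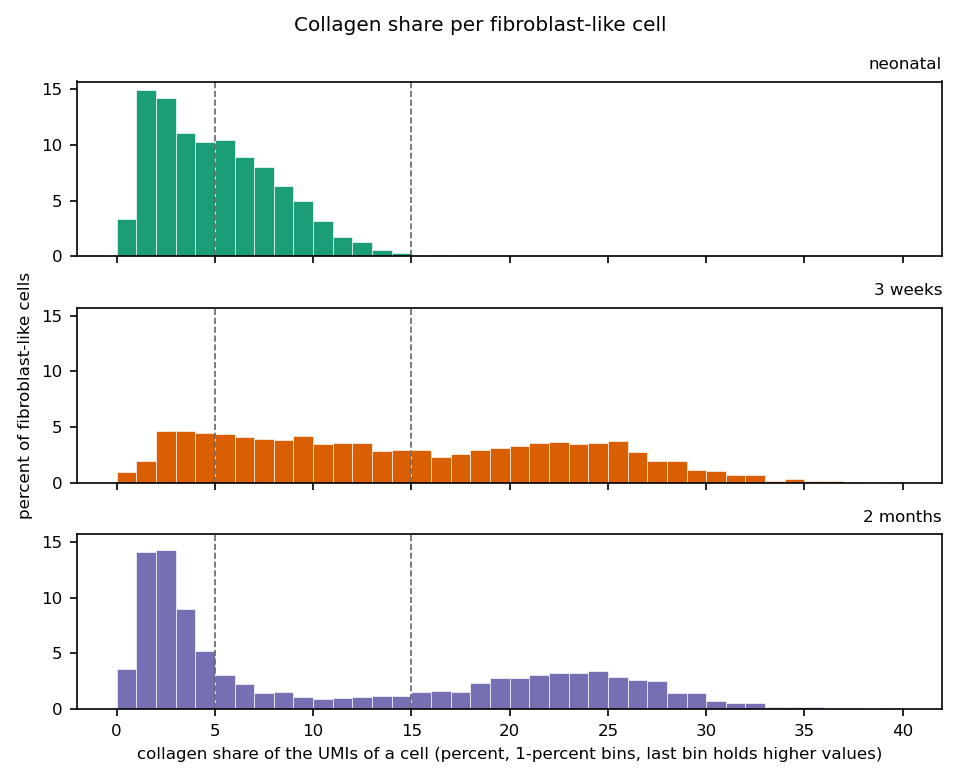
Distribution of the share of collagen UMIs per fibroblast-like cell in 1-percent bins, as percent of the fibroblast-like cells of each library, with dashed lines at 5% and 15%. The 2-month library has 46.2% of cells under 5% and 39.2% at 15% or more, with 14.6% between.

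The cells were split here by their total collagen share, so type I and III levels follow from the split and are not compared. The smaller members differed in both directions between 2-month cells under 5% and those at 15% or more, and the largest differences were toward the low cells. Col11a1 was at 50.8 CPM in the low and 1.41 CPM in the high cells, Col12a1 at 43.5 and 1.83 CPM, and Col27a1 at 14.3 and 0.360 CPM. These had the same direction at 3 weeks. Col4a1 was at 384 CPM in the low and 160 CPM in the high cells, Col14a1 at 227 and 39.8 CPM, and Col7a1 at 37.8 and 7.11 CPM. At 3 weeks Col4a1, at 558 and 158 CPM, and Col7a1, at 122 and 43.6 CPM, had the same direction, while Col14a1 had the opposite one, at 97.7 and 275 CPM. At 2 months Col15a1, at 170 and 636 CPM, and Col16a1, at 194 and 437 CPM, were higher in the high cells, as they were at 3 weeks, at 365 and 732 CPM and at 279 and 864 CPM. Sparc, a secreted collagen-binding protein, was at 13607 and 91704 CPM at 2 months. Each CPM is a share of a total that itself holds the collagens and Sparc. The low and high cells also differ in subtype makeup. At 2 months nearly all follicle-associated Coch-like cells were low cells, and Col11a1 was high in that gate, as given below. The part of the makeup in these differences was not tested.

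Outside fibroblast-like cells, each class was compared with the fibroblast-like cells of the same libraries with edgeR's quasi-likelihood test on UMIs summed per library and class, with library as a block. Of 44 members 35 were tested. All classes were in the same fit and share an estimate of the spread for each gene. With the block, the p-values rest on how much class differences varied between libraries of different ages, taken over all classes. They do not rest on the variation of the tested class alone. The 16 neonatal melanocyte-like and the 14 2-month mast-like cells were too few to be fitted, so these classes rest on the other libraries. Over 10 classes, 20 pairs of member and class were higher and 176 lower than in fibroblast-like cells at an adjusted p of 0.05. Per class, the share of all genes tested that was called ranged from 7.19% to 22.5% for higher and from 7.09% to 24.9% for lower. The fewest lower members were 8 of 35 in pericyte-like (7.09% of all genes tested) and 12 of 35 in Schwann-like cells (14.8%). The most were in macrophage or dendritic-like cells, 26 of 35 (21.5%), and in lymphocyte-like and keratinocyte-like cells, 24 of 35 each (24.9% and 23.6%). The fitted log2 difference of Col1a1 was −4.72 in Schwann-like, −4.99 in pericyte-like, −6.75 in keratinocyte-like and −6.93 in endothelial-like cells. Fibroblast markers summed to 409, 2799 and 869.7 CPM in pericyte-like cells and 561, 727 and 915 CPM in Schwann-like cells, and their part in the collagen levels there was not tested.

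Fibrillar UMIs were present in every class. Lymphocyte-like and macrophage or dendritic-like cells, which are not known to make type I or III collagen, serve as a background, and the part of free RNA or of doublets in it was not tested. Col1a1 was at 51.9, 524 and 335 CPM in lymphocyte-like and at 139, 499 and 373 CPM in macrophage or dendritic-like cells. Col3a1 was at 123, 546 and 316 CPM and at 346, 492 and 261 CPM in these classes. Mast-like cells had more, with 996, 1802 and 7572 CPM of Col1a1 (14 cells at 2 months), and their fibroblast markers summed to 665, 1444 and 3422 CPM, whose part in this was not tested. Keratinocyte-like cells had 182, 618 and 477 CPM of Col1a1 and 323, 564 and 310 CPM of Col3a1. Their Col1a1 was above both background classes in each library, and this is not read as expression. The background of Col4a1 was 2.73, 5.97 and 12.1 CPM in lymphocyte-like and 12.4, 10.1 and 5.21 CPM in macrophage or dendritic-like cells.

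**Figure D4:**
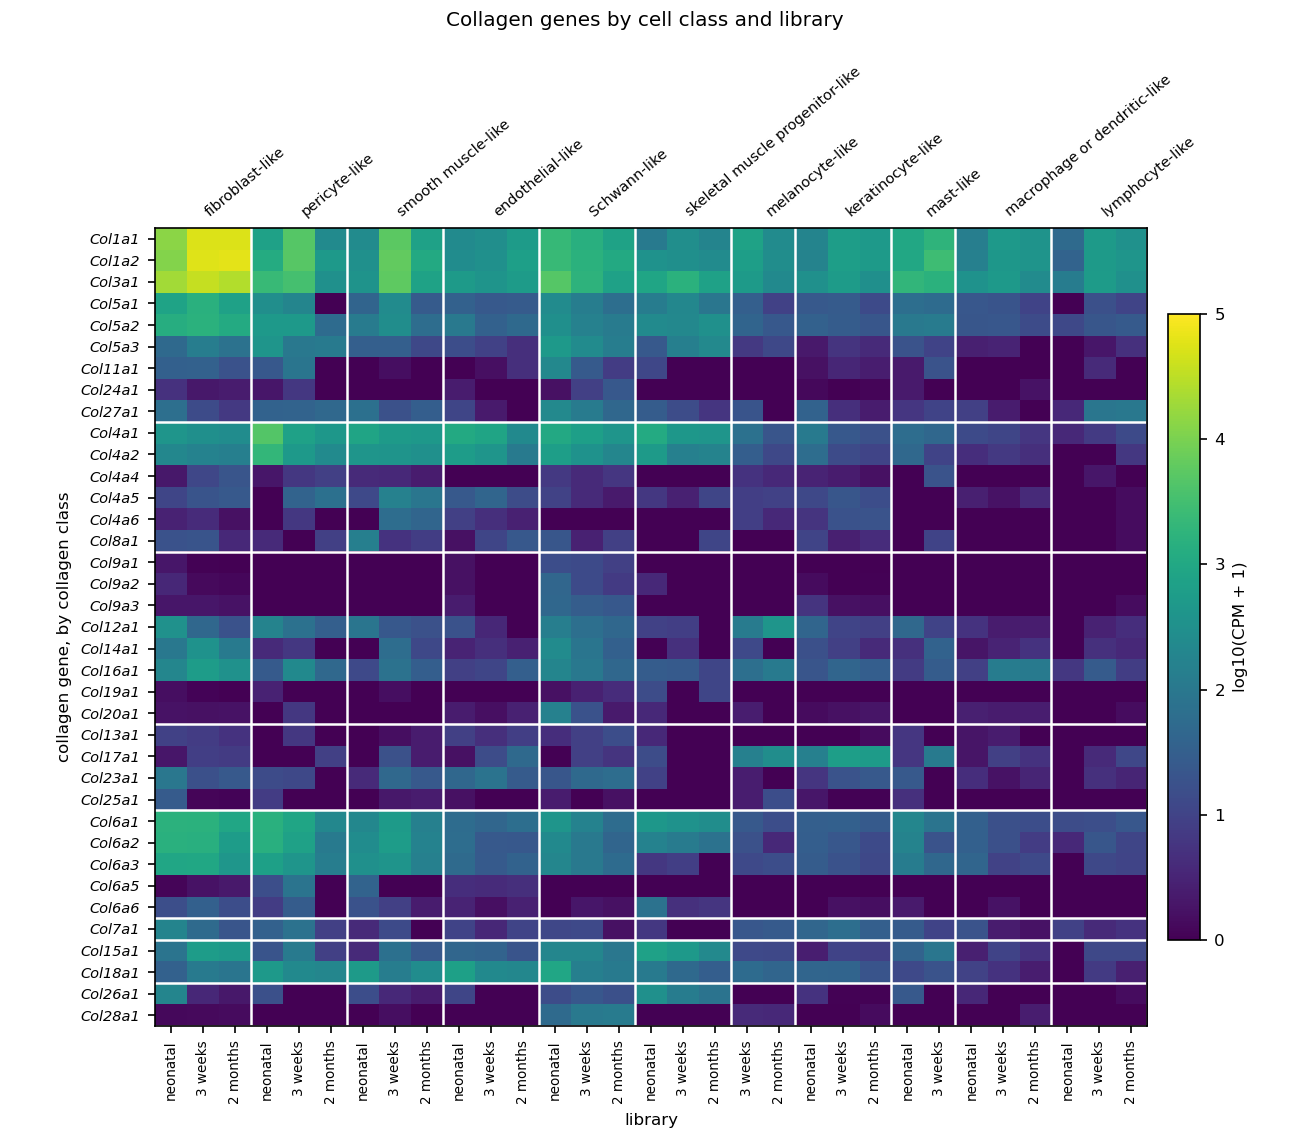
Level of each collagen gene, as log10(CPM + 1), in each cell class (columns, split by library) with genes grouped by structure. Col1a1, Col1a2 and Col3a1 are highest in fibroblast-like cells, Col17a1 in keratinocyte-like and melanocyte-like cells, and Col28a1, Col20a1 and the Col9 genes in Schwann-like cells.

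Keratinocyte-like cells, the epithelium of epidermis and follicle, carried 1 collagen of their own at high level. Col17a1, the hemidesmosome collagen that anchors basal keratinocytes, was at 149, 639 and 551 CPM, against 1.01, 7.39 and 6.26 CPM in fibroblast-like cells, and the groups did not overlap. The log2 difference was 6.59 ± 0.70 (SE), with edgeR's adjusted p = 3.1e-08, and the call held without each library in turn. These cells held 88.9%, 89.0% and 91.8% of all Col17a1 UMIs. Col4a6, a chain of epithelial and smooth muscle basement membranes, was at 4.54, 17.2 and 17.9 CPM in keratinocyte-like and at 2.04, 3.095 and 0.673 CPM in fibroblast-like cells. Its log2 difference was 2.58 ± 0.70 (edgeR's adjusted p = 0.00587, but 0.182 without the 3-week and 0.176 without the 2-month library, and 0.0720 in DESeq2). These were 2 of 35 higher members, against 22.5% of all genes tested.

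Melanocyte-like cells, of which 16 neonatal cells were too few to fit, had 2 of 35 members higher (8.87%). Col12a1 was at 65.6, 120 and 405 CPM, a log2 difference of 2.18 ± 0.55 with edgeR's adjusted p = 0.00546. Against the fibroblast-like levels given above, Col12a1 was lower in the neonatal library, which was not fitted, and higher in both later ones. Without the library block its log2 difference was 0.62 with an adjusted p of 0.744 in edgeR. Col17a1 was at 38.6, 151 and 285 CPM, with 4.54 ± 0.69 and edgeR's adjusted p = 3.12e-05. Keratinocyte markers summed to 2152, 6315 and 5302 CPM in melanocyte-like cells, against 70.5 to 330 CPM in fibroblast-like cells, with 10, 11 and 9 of 11 detected, and their part in the Col17a1 level was not tested. In mast-like cells 1 of 35 was higher (10.3%), Col17a1 with 4, 12 and 0 UMIs, and edgeR's adjusted p of 0.0211 became 0.305 without the 6% highest Scrublet scores.

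Schwann-like cells, the glia of skin nerves, had the most members higher, 7 of 35 (12.4% of all genes). Col28a1, a collagen of peripheral nerve sheaths, was at 53.3, 102 and 118 CPM, against 0.257, 0.311 and 0.400 CPM in fibroblast-like cells, with no overlap. Its log2 difference was 7.72 ± 0.57 (edgeR's adjusted p = 6.33e-08), and the call held without each library and in DESeq2. Col20a1, a FACIT, was at 160, 17.4 and 1.33 CPM (5.26 ± 0.91, edgeR's adjusted p = 0.000113). The last of these values was 2 UMIs, near the fibroblast value of 0.783 CPM. All 3 chains of type IX collagen, a FACIT known from cartilage, were higher together. Col9a1 was at 14.2, 12.6 and 7.97 CPM, Col9a2 at 44.1, 12.6 and 5.97 CPM and Col9a3 at 44.8, 29.0 and 23.2 CPM. Their log2 differences were 5.63, 4.31 and 4.66 with edgeR's adjusted p = 0.000938, 7.39e-05 and 7.5e-05, while DESeq2 gave 0.588, 0.222 and 0.00485. Col27a1 was at 227, 120 and 46.5 CPM with edgeR's adjusted p = 0.0226, which was 0.398 without the 3-week, 0.125 without the 2-month library and 0.0595 in DESeq2. The seventh, Col19a1, had 1, 2 and 5 UMIs.

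Type IV chains were called higher in pericyte-like and smooth muscle-like cells, and each of these calls was lost when certain libraries were left out. In pericyte-like cells, which wrap capillaries, Col4a1 was at 4499 CPM in the neonatal library and at 723 and 439 CPM later, against 401, 305 and 271 CPM in fibroblast-like cells. Col4a2 was at 2000, 509 and 251 CPM. The log2 differences were 1.76 ± 0.54 and 1.75 ± 0.55 with edgeR's adjusted p = 0.0277 and 0.0315. The neonatal library weighed on both: without it they were 0.419 and 0.228, and without the 3-week library 0.198 and 0.232. For Col4a1 edgeR's adjusted p was also 0.0532 without the 6% highest Scrublet scores. Col6a5, an added type VI chain, had 15, 15 and 0 UMIs (edgeR's adjusted p = 0.0478, 0.0914 without the highest Scrublet scores, 0.528 in DESeq2, and 0.538 without the 3-week and 0.0693 without the 2-month library). These were 3 of 35 members, against 7.19% of all genes. In smooth muscle-like cells 2 of 35 were higher (10.7%), both of the X-linked type IV pair. Col4a5 was at 11.5, 156 and 92.7 CPM (1.96 ± 0.61, edgeR's adjusted p = 0.0209) and Col4a6 at 0, 59.1 and 41.5 CPM (3.81 ± 0.77, 0.00129). Without the 3-week library edgeR's adjusted p was 0.538 and 0.186, without the 2-month library 0.119 and 0.0875, and in DESeq2 Col4a5 had 0.115. Pericyte markers summed to 4323, 983.5 and 1650 CPM in smooth muscle-like cells, against 5645, 7669 and 4772 CPM in pericyte-like cells. The neonatal smooth muscle-like gate (43 cells) thus came near the pericyte-like one in these markers, and their part in the levels by age was not tested.

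In endothelial-like cells edgeR called 0 of 35 members higher (13.8% of all genes), with 2 at an unadjusted p under 0.05 and 0 in DESeq2. Col18a1, the source of endostatin, was at 687, 238 and 206 CPM there, against 34.1, 116 and 88.7 CPM in fibroblast-like cells, above them in all 3 libraries, with edgeR's adjusted p = 0.0561. It was also at 894, 146 and 112 CPM in Schwann-like and 508, 230 and 196 CPM in pericyte-like cells. Endothelial-like Col4a1 was at 1103, 817 and 234 CPM, with edgeR's adjusted p = 0.465. In skeletal muscle progenitor-like cells 2 of 35 were higher (8.22%). Col26a1 was at 325, 126 and 79.6 CPM (3.42 ± 0.86, edgeR's adjusted p = 0.00568, 0.325 without the 3-week and 0.152 without the 2-month library). Col19a1, known from embryonic muscle, had 5, 0 and 2 UMIs (edgeR's adjusted p = 0.00741, 0.107 without the 3-week library and 0.171 in DESeq2).

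In lymphocyte-like cells 1 of 35 members was higher (20.7%). Col27a1 was at 2.73 CPM (1 UMI) in the neonatal library and at 91.6 and 98.1 CPM later, against 65.4, 13.1 and 5.92 CPM in fibroblast-like cells. It was thus lower than in fibroblast-like cells in the neonatal library and higher in both later ones, with a log2 difference of 2.40 ± 0.79 and edgeR's adjusted p = 0.0144. That p was 0.252 without the 3-week and 0.356 without the 2-month library. In macrophage or dendritic-like cells edgeR called 0 of 35 higher (18.9%), with 0 at an unadjusted p under 0.05 and 0 in DESeq2. Within them Col16a1 followed Cd207, the langerin gene of Langerhans cells, in a split chosen after its values were seen. At 3 weeks 64 cells with a Cd207 UMI had 304 CPM of Col16a1 and 157 without had 15.3 CPM, and at 2 months 66 cells had 379 CPM and 233 had 11.4 CPM. A Col16a1 UMI was present in 78.1% and 69.7% of the Cd207 cells, against 5.73% and 4.72% of the others, at median depths of 7282.5 and 5258.5 against 4907 and 3454 UMIs. The fibroblast-like level of Col16a1 given above was higher than that of the Cd207 cells at 3 weeks and lower, at 339 CPM, at 2 months.

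Fibroblast-like cells were further gated by subtype markers, which took in 46.8% of 16047 cells. Of all 16047, 51.7% lay near a cut, so these gates are ranges along scores more than separate kinds. Each was compared with the fibroblast-like cells in no gate by edgeR's quasi-likelihood test, with library as a block and 35 members tested. Over 6 subtypes 13 pairs were higher and 25 lower. Per subtype, the share of all genes tested that was called ranged from 0.0393% to 7.82% for higher and from 0.252% to 9.02% for lower.

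**Figure D5:**
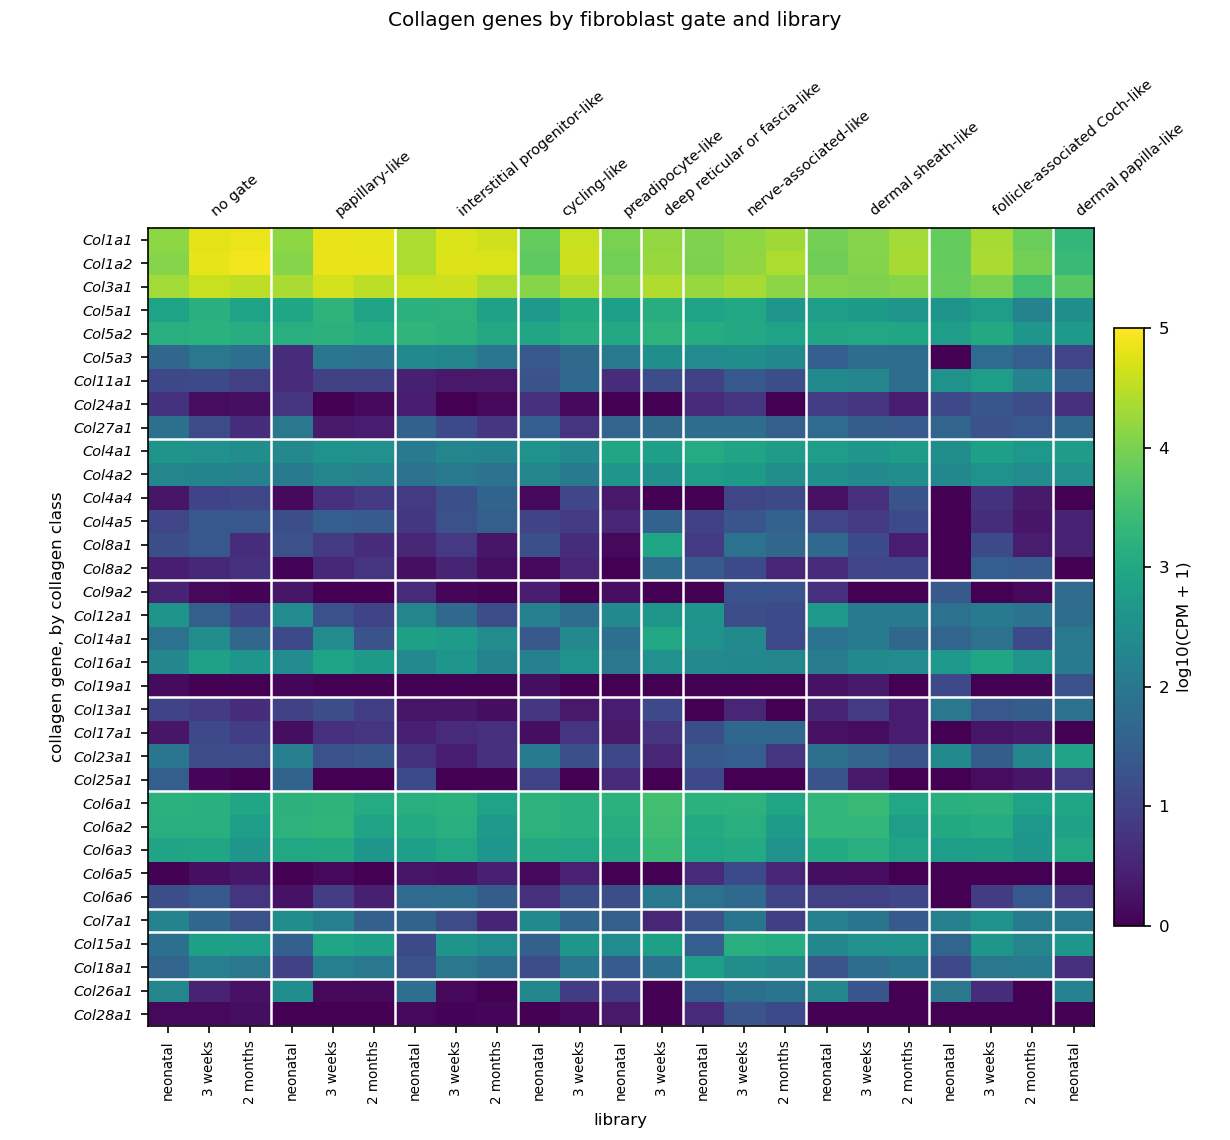
Level of each collagen gene, as log10(CPM + 1), in fibroblast-like cells of no gate and of each subtype gate, split by library. Col11a1 stands out in the dermal sheath-like and follicle-associated Coch-like columns, at 61.8 to 610 CPM, against 7.91 to 12.6 CPM in the cells of no gate.

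The follicle-associated Coch-like cells, gated on Coch, Tnmd, Tnn, Crabp1 and Lef1 (25, 300 and 444 cells), differed most, with 6 of 35 members higher (7.13% of all genes) and 11 lower (9.02%). Col11a1 was at 350, 610 and 164 CPM, against 11.2, 12.6 and 7.91 CPM in ungated cells, and the groups did not overlap. Its log2 difference was 4.66 ± 0.49 with edgeR's adjusted p = 2.94e-05, and the call held without each library. Col24a1, a minor fibrillar chain, was at 11.9, 21.1 and 13.9 CPM, against 4.35, 0.490 and 0.631 CPM (3.92 ± 0.65, edgeR's adjusted p = 0.0009). The transmembrane chains Col13a1, at 101, 21.5 and 29.3 CPM, and Col23a1, at 243, 28.5 and 205 CPM, were higher with edgeR's adjusted p = 0.00232 and 0.0228. Without the 2-month library these were 0.116 and 0.411, and Col23a1 had 0.0720 without the 3-week one. Col7a1, at 154, 368 and 118 CPM, had 0.0271 in edgeR (0.334 without the 3-week and 0.307 without the 2-month library). Col8a2, with 0, 68 and 103 UMIs, had 0.0157 in edgeR (0.376 and 0.0892 without those libraries, 0.0527 in DESeq2).

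In the same cells the main fibre chains were lower. Col3a1 was at 6844, 10306 and 3124 CPM, against 20548, 38547 and 32460 CPM in ungated cells, a log2 difference of −2.62 ± 0.36 (edgeR's adjusted p = 0.000209, held without each library). Col1a1 had −2.29 ± 0.48 (edgeR's adjusted p = 0.00461, 0.154 without the 2-month library) and Col1a2 −2.20 ± 0.50 (0.00774, 0.201 without the 2-month library and 0.140 in DESeq2). Col5a1 and Col5a2 had −1.89 and −1.42 (edgeR's adjusted p = 0.00115 and 0.00205, and 0.0714 and 0.0951 without the 2-month library). The other 5 lower members, Col4a4, Col4a6, Col17a1, Col6a2 and Col6a3, had edgeR's adjusted p of 0.141 to 0.487 without the 2-month library, and Col17a1 had 0.211 without the highest Scrublet scores. Col11a1, which can join type V chains in mixed fibres, was higher in these cells and Col5a1 lower. Col4a5 had 0, 8 and 4 UMIs, against 10.1, 23.1 and 21.5 CPM in ungated cells (−3.84 ± 0.65, edgeR's adjusted p = 0.00107, 0.0919 without the 2-month library).

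Dermal sheath-like cells, contractile cells around the follicle gated on Acta2 and related genes (532, 223 and 88 cells), shared the Col11a1 difference. It was at 241, 184 and 61.8 CPM, 3.68 ± 0.47 above ungated cells on the log2 scale (edgeR's adjusted p = 0.000479, 0.0970 without the 3-week library). This was 1 of 35 higher (1.68%), and 6 of 35 were lower (1.86%): Col1a1, Col1a2, Col3a1, Col5a1, Col16a1 and Col17a1, with log2 differences of −2.68 to −1.22. Leaving out the 3-week or the 2-month library ended all 6 of these calls, and for Col17a1 edgeR's adjusted p was 0.345 without the highest Scrublet scores. For Col3a1, at 11808, 10894 and 12200 CPM, edgeR's adjusted p was 0.0134, then 0.542 and 0.102 without them.

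Interstitial progenitor-like cells, gated on Pi16, Dpp4 and other genes (255, 1612 and 1571 cells), had 2 of 35 members higher (4.97%) and 5 lower (3.81%). Col4a4 was at 6.00, 16.0 and 39.5 CPM, against 0.925, 8.97 and 10.4 CPM in ungated cells (1.71 ± 0.41, edgeR's adjusted p = 0.0146, 0.0643 without the neonatal and 0.131 without the 2-month library). Col6a6 was at 54.0, 59.6 and 28.3 CPM, against 14.95, 22.3 and 4.53 CPM (1.93 ± 0.54, edgeR's adjusted p = 0.0342, which was 0.0830 to 0.112 without each library and 0.102 in DESeq2). Its lower members were Col11a1 at 1.80, 1.17 and 1.19 CPM, Col13a1 at 0.9001, 0.995 and 0.519 CPM, Col23a1 at 4.50, 1.69 and 4.21 CPM and Col7a1 at 38.1, 13.3 and 2.23 CPM, together with Col4a2. Their log2 differences were −3.02, −2.76, −2.85, −2.19 and −1.05, with edgeR's adjusted p of 0.00303, 0.00247, 0.00629, 0.0194 and 0.0414. Leaving out 1 library ended each call, at 0.0859 for Col11a1, 0.0708 for Col13a1, 0.0682 for Col23a1, 0.231 for Col7a1 and 0.244 for Col4a2.

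Nerve-associated-like cells (25, 52 and 71 cells) had 4 of 35 members higher (3.48%) and 3 lower (3.23%). Col28a1 had 1, 8 and 5 UMIs, or 2.97, 20.1 and 12.2 CPM, against 0.277 to 0.520 CPM in ungated cells (4.63 ± 0.72, edgeR's adjusted p = 0.00483, 0.183 without the 3-week and 0.0595 without the 2-month library). Col9a2 had 0, 7 and 7 UMIs (edgeR's adjusted p = 0.0268, 0.384 and 0.343 without those libraries). Col4a2 was at 624, 540 and 294 CPM, against 200, 177 and 165 CPM (1.13 ± 0.31, edgeR's adjusted p = 0.0414, 0.271 and 0.106). Both Col28a1 and Col9a2 were also higher in Schwann-like cells. Schwann markers summed to 8.91, 52.8 and 78.3 CPM here, with 2, 3 and 5 of 9 detected and Sox10 at 0 in each library, against 10570, 80040 and 68350 CPM there, and the part of Schwann-like cells in these levels was not tested. The fourth, Col17a1, had a log2 difference of 2.30 (edgeR's adjusted p = 0.00652) that became −1.03 (0.772) without the 6% highest Scrublet scores, and was 0.0906 without the 3-week and 0.127 without the 2-month library. Keratinocyte markers summed to 546, 3140 and 1828 CPM in this gate, and their part in this was not tested. Col1a1, Col1a2 and Col16a1 were lower, with edgeR's adjusted p = 0.0328, 0.0475 and 0.0487. Without the 3-week library these were 0.280, 0.331 and 0.531, and without the 2-month library 0.274, 0.326 and 0.280, while Col1a2 had 0.0502 without the highest Scrublet scores.

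Papillary-like cells (908, 292 and 298 cells) had 0 members higher and 0 lower in edgeR, against 0.0393% and 0.252% of all genes, with 1 and 5 at an unadjusted p under 0.05 and 0 and 0 in DESeq2. Col7a1 was at 285, 146 and 33.7 CPM in them and 174, 47.8 and 16.0 CPM in ungated cells. Cycling-like cells, fitted from the neonatal and 3-week libraries, had 0 and 0 in edgeR (7.82% and 3.89% of all genes), with 1 and 9 unadjusted and 0 and 1 in DESeq2.

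Across 51 summed profiles of class or subtype and library, the closest pairs of members by Pearson's r of log2(CPM + 1) were chains of one molecule. They were Col1a1 with Col1a2 (0.994), Col4a1 with Col4a2 (0.987) and Col6a1 with Col6a2 (0.978), followed by Col5a2 with Col6a1 (0.968). The profiles share libraries and depth, so these values describe likeness only. Col4a1 and Col4a2 share the 78 bases of promoter printed above.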

How the data were processed

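The authors deposited 3 matrices of raw UMI counts per gene and barcode, and per the labels' protocols the libraries came from a 10x 3' kit (version 2). The submitters' processing notes name Cell Ranger 3.0.2, Seurat 2.0 and mm10, without roles. How barcodes were chosen and whether counting used strand is not given in the sources used here. Barcodes were filtered and gated as described above (at least 3 markers detected, score at least 0.2, margin at least 0.1), and counts were summed per library and gate. CPM is relative to all UMIs of the gate. Intervals are exact 95% Poisson, conditional or Clopper-Pearson intervals. Groups of 20 or more cells in at least 2 libraries were fitted with edgeR 4.0.16 (filterByExpr, TMM, quasi-likelihood test, Benjamini-Hochberg adjustment over all genes tested). SEs were derived from the F statistic and the fold change. DESeq2 1.42.0 and the other settings are in the closing section. Library is a block because each library holds all classes, which pairs them. Named genes are members at 10 CPM or more in fibroblast-like cells, or at 10 CPM in 2 libraries of a class that tests higher. The members and lists were chosen with earlier results of these data known. The edgeR script was tested on simulated data.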

Additional observations from a re-analysis of the deposited data

Results flagged for a closer look

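Between pairs of fibroblast subtype gates, 3 members differed at least 2-fold between ages in opposite directions, with counting intervals of both log2 ratios clear of 0. Smaller opposite differences are not listed. These differences were not tested, since each gate has 1 library per age. Col7a1 from the neonatal to the 3-week library went from 17.8 to 85.4 CPM (6 and 34 UMIs) in nerve-associated-like cells and from 237 to 43.5 CPM in cycling-like cells, a difference of 4.71 between the log2 ratios. Keratinocyte markers in the nerve-associated-like cells summed to 546 and 3140 CPM in these libraries, and their part in the Col7a1 levels was not tested. Col18a1 over the same step went from 8.91 to 144 CPM in papillary-like cells and from 677 to 299 CPM in nerve-associated-like cells, a difference of 5.199. Col6a6 from 3 weeks to 2 months went from 6.58 to 22.6 CPM (15 and 88 UMIs) in follicle-associated Coch-like cells and from 50.2 to 9.79 CPM (20 and 4 UMIs) in nerve-associated-like cells, a difference of 4.14.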

How the results depend on the processing

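The collagen share of fibroblast-like UMIs (5.33%, 15.8% and 15.1%) became 5.56%, 15.8% and 15.2% with at most 5% mitochondrial UMIs, 5.37%, 15.9% and 15.3% without the 6% highest Scrublet scores, 5.32%, 15.8% and 14.6% with Leiden clusters, and 5.07%, 14.7% and 11.6% as a mean over cells. From 3 weeks to 2 months, 1 member was higher with Leiden clusters and 1 as a mean over cells, which also left 6 lower, in place of 0 and 10. The shares of all genes under these settings are not given here. Pairs of class and member that were higher, 20 in all, were 11 in DESeq2, 13 with no library block, and 3 to 14 leaving out each library (3 without the 3-week one). Lower pairs, 176 in all, were 108 to 170 leaving out each library, 161 with no library block and 171 in DESeq2. For subtypes, 13 higher pairs were 3 with no library block and 3 to 19 leaving out each library, and 25 lower pairs were 4 and 3 to 32. Since all classes of a library come from the same library, the block pairs them by design. The named result that reversed was Col17a1 in nerve-associated-like cells, at −1.03 without the 6% highest Scrublet scores. The cause was not tested. Pairs resting on under 10 UMIs in a library and gates of under 60 cells are limited by depth. Under a stricter gate (score 0.3, margin 0.15) 13 of the named tests no longer passed and 43 kept their call, and the pairs numbered 19, 177, 14 and 22. Leiden clusters give no subtype gates, and leaving out a library that left a class in 1 library gave no value.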

Other observations

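Some fibroblast subtype gates held 20 or more cells in 1 library only, and their values stand alone. Dermal papilla-like cells, the signalling core of the follicle, numbered 85 in the neonatal library. They had 758 CPM of Col23a1, 76.6 CPM of Col13a1 and 54.5 CPM of Col9a2, against 91.4, 9.46 and 2.10 CPM in neonatal fibroblast-like cells of no gate, and 2049 CPM of Col1a1 against 14183 CPM. Preadipocyte-like cells, 233 in the neonatal library, had 895 CPM of Col4a1 and 274 CPM of Col15a1, against 382 and 65.9 CPM in ungated cells. At 3 weeks 30 deep reticular or fascia-like cells had 890 CPM of Col8a1, 999.7 CPM of Col14a1 and 440.0 CPM of Col12a1. The level of Col8a1 over all fibroblast-like cells of that library was 19.3 CPM.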
